A study of Homo sapiens with 12 samples.

Results

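*METTL18*, *ALKBH4*, *PLD6* and *KLHL9* are 4 of the 63152 gene identifiers counted in OPM2, a human multiple myeloma cell line of malignant plasma-cell origin. They were chosen by their measured log2 fold changes of 18DS against DMSO, which were the lowest after those of *MYC* and *CCR1*. The genes ranked had passed the test in that comparison and had 18DS libraries that did not overlap those of DMSO. They also averaged at least 5 CPM (counts scaled to the same library total) over all 12 libraries. The fall of the 4 genes with 18DS is therefore described without a test. Poly(A) RNA was sequenced from the 3' end (QuantSeq) in 12 libraries, 3 per group, each taken 2 h after addition of a compound or of the vehicle DMSO. JQ1, which blocks the bromodomains by which BET proteins bind acetylated histones, was used at 250 nM. BKM120 (buparlisib), an inhibitor of the lipid kinase PI3K, was used at 1 µM. The compound 18DS, a chimeric molecule made to inhibit PI3K and BET proteins together, was used at 250 nM. The doses of JQ1 and 18DS are thus equal and that of BKM120 is not. Beyond a statement that the experiment was in biological triplicate, nothing ties the libraries to separate cultures, and all come from the same cell line, so p-values measure the spread between these libraries.

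The 4 genes encode proteins of unrelated pathways. METTL18 is a histidine methyltransferase that modifies ribosomal protein RPL3. ALKBH4 belongs to the AlkB family of iron- and 2-oxoglutarate-dependent dioxygenases, and actin is among its reported demethylation substrates. PLD6 (mitoPLD) is an outer mitochondrial membrane protein of the phospholipase D family, known for promoting mitochondrial fusion and, in the germ line, for piRNA production. KLHL9 is a substrate adaptor of CUL3 ubiquitin ligases that acts with KLHL13 on Aurora B during mitosis. BET bromodomain proteins promote transcription by RNA polymerase II, and *MYC* is a well-known BET-dependent gene in myeloma.

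RefSeq entries of GRCh38.p14 held the promoters of 3 of the 4 genes, *METTL18*, *ALKBH4* and *KLHL9*. The 250 bases before the farthest upstream start are printed for them because the transcripts of all 3 were lower with JQ1, a drug that acts on chromatin-bound proteins. All lie on the minus strand, are written 5′ to 3′ in the direction of transcription, and occupy chr1:169794908-169795157 (*METTL18*), chr7:102464864-102465113 (*ALKBH4*) and chr9:21335405-21335654 (*KLHL9*). Capitals mark matches, on either strand, to the letters CCGGAA (core of ETS-factor sites) and GGGCGG (GC box).
METTL18: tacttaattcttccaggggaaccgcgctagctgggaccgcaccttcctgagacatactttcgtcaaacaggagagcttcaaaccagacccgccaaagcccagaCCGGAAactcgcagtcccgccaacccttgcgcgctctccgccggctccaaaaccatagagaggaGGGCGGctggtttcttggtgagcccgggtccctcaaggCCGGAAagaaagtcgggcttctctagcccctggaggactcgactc
ALKBH4: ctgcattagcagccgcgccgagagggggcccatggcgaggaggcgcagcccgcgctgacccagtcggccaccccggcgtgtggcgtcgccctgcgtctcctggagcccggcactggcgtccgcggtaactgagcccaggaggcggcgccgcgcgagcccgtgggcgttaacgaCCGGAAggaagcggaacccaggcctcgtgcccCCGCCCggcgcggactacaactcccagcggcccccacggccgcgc
KLHL9: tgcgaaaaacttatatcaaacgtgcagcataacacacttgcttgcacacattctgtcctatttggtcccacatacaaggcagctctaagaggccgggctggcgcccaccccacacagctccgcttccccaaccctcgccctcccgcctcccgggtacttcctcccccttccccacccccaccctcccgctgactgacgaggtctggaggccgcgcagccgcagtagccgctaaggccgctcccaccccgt
The *METTL18* window held CCGGAA 2 times and a GC box. The *ALKBH4* window held CCGGAA and a GC box on the opposite strand (CCGCCC as printed). The *KLHL9* window held neither. No window held CACGTG (the canonical E-box bound by MYC), CCAAT or TATAAA, and the printed matches do not overlap each other. Among 27305 promoter windows of this length, CCGGAA occurred in 14.83%, GGGCGG in 42.31%, CACGTG in 6.49%, CCAAT in 33.04% and TATAAA in 11.13%. Those windows came from the first entry of each gene, whereas the printed ones came from the farthest upstream start. GC content was 59.6% for *METTL18*, 76% for *ALKBH4* and 62.8% for *KLHL9*, beside a median of 58% over all windows. These matches are descriptions of sequence, and no binding was measured here.

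Libraries held 5501895 to 7692013 counts. Of the identifiers, 13180 had enough counts to be tested, all 4 genes among them. All 10 plasma-cell markers were detected above the filter, with summed levels of 4629 to 5933 CPM, against at most 0.719 CPM for T and NK cell markers, 3.15 CPM for myeloid markers and 2.75 CPM for epithelial and fibroblast markers. *CD38* was the lowest of the plasma-cell markers, at 3.40 to 6.86 CPM. The third principal component (8.13% of variance) set 18DS replicate 2 apart from the other 18DS libraries. *HEXIM1*, whose transcript is known to rise with BET inhibitors, was at 31.5 ± 1.85 CPM with DMSO, 99.4 ± 11.2 with JQ1, 30.7 ± 0.258 with BKM120 and 122 ± 19.9 with 18DS (SD, n = 3 each).

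*METTL18* (ENSG00000171806, chromosome 1, 2 exons) had 29.1% of its vehicle level left with JQ1. It measured 12.81, 13.21 and 13.33 CPM in the DMSO libraries, 4.13, 3.46 and 3.88 with JQ1, 9.66, 11.22 and 9.52 with BKM120, and 2.96, 2.28 and 2.05 with 18DS. The DMSO libraries lay within a narrow band and the 4 groups did not overlap, in the order DMSO, BKM120, JQ1 and 18DS. Group means were 13.1 ± 0.269, 10.1 ± 0.943, 3.82 ± 0.340 and 2.43 ± 0.472 CPM in that order (SD, n = 3), and 77.3% of the vehicle level was left with BKM120 and 18.5% with 18DS. Behind these levels stood 80 to 87 counts per DMSO library and 13 to 21 per 18DS library. In bulk RNA, fewer expressing cells and less RNA per cell cannot be told apart for any of these genes.

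*ALKBH4* (ENSG00000160993, chromosome 7, 3 exons) had the lowest level of its 4 groups with 18DS, where 15% of the vehicle mean was left. It measured 10.75, 10.31 and 5.83 CPM with DMSO, 3.61, 5.09 and 3.76 with JQ1, 5.96, 7.68 and 8.09 with BKM120, and 1.55, 1.23 and 1.26 with 18DS. DMSO replicate 3 was well below the other vehicle libraries, and the BKM120 values fell inside the DMSO range. The JQ1 libraries all lay below those of DMSO and BKM120, and the 18DS libraries below all others. Means were 8.96 ± 2.72 with DMSO, 7.24 ± 1.13 with BKM120 (80.8% of DMSO), 4.15 ± 0.817 with JQ1 (46.3%) and 1.35 ± 0.176 with 18DS (SD, n = 3). The 18DS counts were 11, 7 and 8, with exact 95% Poisson intervals from 2.81 to 14.4 for the lowest and 5.49 to 19.7 for the highest, which cover counting error only.

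*PLD6* (ENSG00000179598, chromosome 17, 2 exons) was the member with low levels with BKM120 as well as with JQ1. It measured 18.41, 18.84 and 18.66 CPM with DMSO, 7.91, 8.19 and 10.88 with JQ1, 6.92, 9.74 and 10.42 with BKM120, and 3.10, 5.27 and 4.58 with 18DS. The vehicle libraries were nearly equal, the JQ1 and BKM120 libraries covered the same range, and every 18DS library was lower still. Means were 18.6 ± 0.218 with DMSO, 8.99 ± 1.64 with JQ1 (48.2%), 9.03 ± 1.86 with BKM120 (48.4%) and 4.32 ± 1.11 with 18DS (23.2%; SD, n = 3).

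*KLHL9* (ENSG00000198642, chromosome 9, 1 exon) had the most counts of the 4, 266 to 295 per DMSO library. It measured 43.45, 42.84 and 45.65 CPM with DMSO, 19.44, 19.28 and 22.14 with JQ1, 38.96, 38.24 and 43.48 with BKM120, and 13.53, 7.90 and 9.63 with 18DS. The highest BKM120 library overlapped the DMSO range, while the JQ1 libraries lay together below both. Means were 44.0 ± 1.48 with DMSO, 40.2 ± 2.84 with BKM120 (91.5%), 20.3 ± 1.61 with JQ1 (46.1%) and 10.4 ± 2.88 with 18DS (23.5%; SD, n = 3). Counts from 3' ends were not divided by length, and levels are compared within a gene only.

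**Figure D1:**
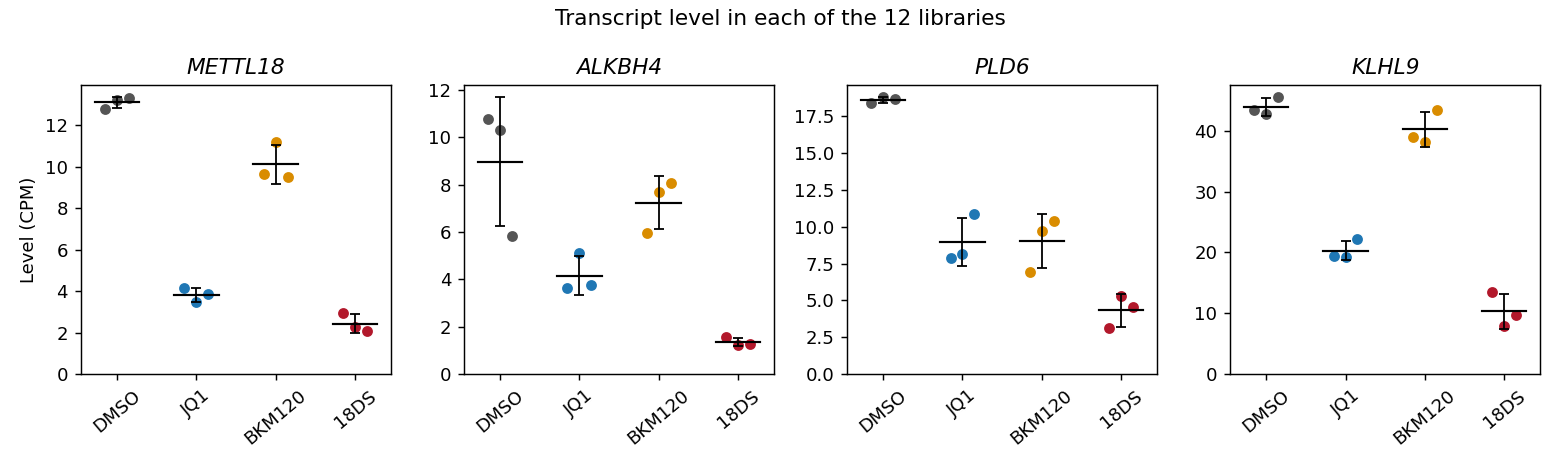
Level of each gene in CPM (linear axis from 0, scaled separately per gene) in the 12 libraries, with points for libraries, horizontal lines for group means and bars for SD (n = 3). The 18DS points are the lowest of every panel, from 1.23 CPM for *ALKBH4* to 13.53 CPM for *KLHL9*, and PLD6 is the panel in which JQ1 and BKM120 points share a range.

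The comparison of JQ1 with BKM120 shares no library with the comparison that chose the genes. It asks whether the BET inhibitor and the PI3K inhibitor left different transcript levels, at doses of 250 nM and 1 µM that are not matched. The limit of 5 CPM in the choice did use all 12 libraries, those of JQ1 and BKM120 included. *ALKBH4* passed it narrowly at 5.43 CPM, with means of 7.24 with BKM120 and 4.15 with JQ1. Its test is therefore not wholly independent of the choice. *METTL18*, *KLHL9* and *ALKBH4* were lower with JQ1 than with BKM120 and *PLD6* was not distinguishable. The log2 difference was −1.40 ± 0.22 (SE) for *METTL18* (edgeR adjusted p = 1.34e-05), −0.98 ± 0.13 for *KLHL9* (edgeR adjusted p = 8.17e-07) and −0.81 ± 0.26 for *ALKBH4* (edgeR adjusted p = 0.0302). In each of these 3 genes the JQ1 libraries all lay below the BKM120 libraries. For comparison, 7.42% of the 13180 genes tested were called lower in JQ1 than in BKM120, and 17.0% had JQ1 libraries all below the BKM120 libraries. For *PLD6* the log2 difference was 0.02 ± 0.20, with a 95% interval from −0.39 to 0.42 and an edgeR adjusted p of 0.972. Its sign turned without JQ1 replicate 3 (−0.16) or without BKM120 replicate 1 (−0.15). The *ALKBH4* call was the least secure. Its adjusted p was 0.0644 with DESeq2's Wald test, and in edgeR 0.105 when JQ1 replicate 1 was left out and 0.132 when JQ1 replicate 3 was. Leaving out BKM120 replicate 2 or 3 gave edgeR adjusted p-values of 0.0763 and 0.114, with differences between −0.76 and −0.73 in these fits.

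*PLD6* was set against the other members within each library, a choice made after its values had been seen. Per *METTL18* count, *PLD6* gave 1.92, 2.37 and 2.80 counts in the JQ1 libraries and 0.717, 0.868 and 1.09 in the BKM120 libraries. The log2 ratio was 1.22 ± 0.274 with JQ1 and −0.18 ± 0.306 with BKM120 (SD, n = 3). Over *ALKBH4* the log2 ratio was 1.12 ± 0.425 with JQ1 and 0.31 ± 0.0806 with BKM120, and over *KLHL9* it was −1.19 ± 0.142 and −2.18 ± 0.278 (SD, n = 3). In all 3 ratios every JQ1 library exceeded every BKM120 library. The DMSO log2 ratios over *METTL18*, 0.49 to 0.52, lay between those of JQ1 and BKM120. Over *ALKBH4* (0.78 to 1.68) and *KLHL9* (−1.29 to −1.18) the DMSO libraries overlapped the JQ1 range and lay above BKM120. The ratios restate differences between the groups within libraries and carry no test.

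With JQ1 against DMSO, all 4 genes had log2 changes of −1.03 or lower. This comparison and that of BKM120 with DMSO use the DMSO libraries that also entered the choice of the genes, so the members' values are given as a description with no test. In the fit over all genes, 3.45% of tested genes were called lower with JQ1. The log2 change was −1.77 ± 0.22 (SE) for *METTL18* (95% interval −2.21 to −1.33) and −1.11 ± 0.13 for *KLHL9* (−1.37 to −0.85). It was −1.03 ± 0.18 for *PLD6* (−1.41 to −0.66) and −1.13 ± 0.26 for *ALKBH4* (−1.64 to −0.61). Counted from the lowest log2 change among the 9858 genes that averaged 5 CPM or more, *METTL18* stood at rank 4, *ALKBH4* at 27, *KLHL9* at 31 and *PLD6* at 38. The JQ1 libraries of all 4 genes lay below those of DMSO, as held for 13.2% of tested genes.

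With BKM120 against DMSO, *PLD6* had the lowest log2 change of the 4 genes, and 4.14% of tested genes were called lower. Its log2 change was −1.05 ± 0.19 (SE; 95% interval −1.42 to −0.67), which placed it at rank 20 from the lowest. The values for *METTL18* were −0.37 ± 0.18 (95% interval −0.73 to 0.0003), for *ALKBH4* −0.32 ± 0.23 and for *KLHL9* −0.13 ± 0.12. The *METTL18* libraries with BKM120 nevertheless all lay below DMSO, which 14.5% of tested genes did too. *KLHL9* had the narrowest of the 4 intervals, −0.37 to 0.11, whereas that of *ALKBH4* ran from −0.79 to 0.16.

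*MYC* gives a second reference for *PLD6*, which has been described as a MYC-induced gene in mammary epithelial cells. *MYC* averaged 29.3 ± 2.61 CPM with DMSO, 2.54 ± 0.343 with JQ1, 51.3 ± 4.68 with BKM120 and 2.51 ± 1.12 with 18DS (SD, n = 3). Its log2 change with BKM120 was 0.81, beside −1.05 for *PLD6*. A part of MYC in the *PLD6* levels was not tested. *CCR1*, a chemokine receptor gene with a lower log2 change than the 4 genes with 18DS, had a log2 change of −1.09 with BKM120.

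18DS against DMSO is the comparison that chose the genes, and its values are given as a description. The log2 change was −2.71 ± 0.34 (SE) for *ALKBH4*, −2.41 ± 0.24 for *METTL18*, −2.13 ± 0.22 for *PLD6* and −2.06 ± 0.15 for *KLHL9*. In that comparison 11.0% of tested genes were called lower, and 18.4% had 18DS libraries all below the DMSO libraries. *MYC* (−3.51) and *CCR1* (−2.91) preceded them, and the next genes were *MGAT3* (−1.99), which encodes a glycosyltransferase, and *ZNF764* (−1.80), a zinc-finger gene. *KLHL9* and *MGAT3* were thus separated by less than the SE of either. The rule also turned on the level, since *ALKBH4* averaged 5.43 CPM. Below the limit of 5 CPM, 14 genes that met the other conditions of the rule had falls at least as large as that of *KLHL9*. The most abundant of them was *CYP26A1* (4.07 CPM, log2 change −2.63).

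At the equal dose of 250 nM, all 4 genes were lower with 18DS than with JQ1. These differences share the 18DS libraries with the rule and carry no test. The log2 difference was −1.59 for *ALKBH4* (95% interval −2.33 to −0.84), −1.09 for *PLD6* (−1.56 to −0.63), −0.96 for *KLHL9* (−1.27 to −0.64) and −0.64 for *METTL18* (−1.20 to −0.08). That of *ALKBH4* was the lowest of the 9858 genes averaging 5 CPM or more. The groups did not overlap for any of the 4 genes, as for 12.2% of tested genes. Against BKM120, at its different dose, 18DS libraries were lower by log2 values of −2.40 for *ALKBH4*, −2.04 for *METTL18*, −1.93 for *KLHL9* and −1.08 for *PLD6*.

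The log2 change with 18DS was set beside the log2 changes with JQ1 and BKM120 added together, with no test because 18DS and DMSO entered the rule. For *PLD6* the sum was −2.08 and the change with 18DS was −2.13, a departure of −0.05 (95% interval −0.65 to 0.55). For *METTL18* the sum was −2.14 and the change −2.41, a departure of −0.27 (−0.94 to 0.40). *KLHL9* fell further than its sum of −1.24, with a departure of −0.83 (−1.22 to −0.43). *ALKBH4* fell further than its sum of −1.44, with a departure of −1.27 (−2.15 to −0.39). The sum corresponds to 36.8% of the vehicle level for *ALKBH4* and 42.4% for *KLHL9*, where the fit gave 15.3% and 23.9% with 18DS. The BKM120 dose in the sum was 1 µM. The choice of genes favoured low values with 18DS, which push the departure down, and high values with DMSO, which push it up. The net effect of the choice on the departure was not tested.

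**Figure D2:**
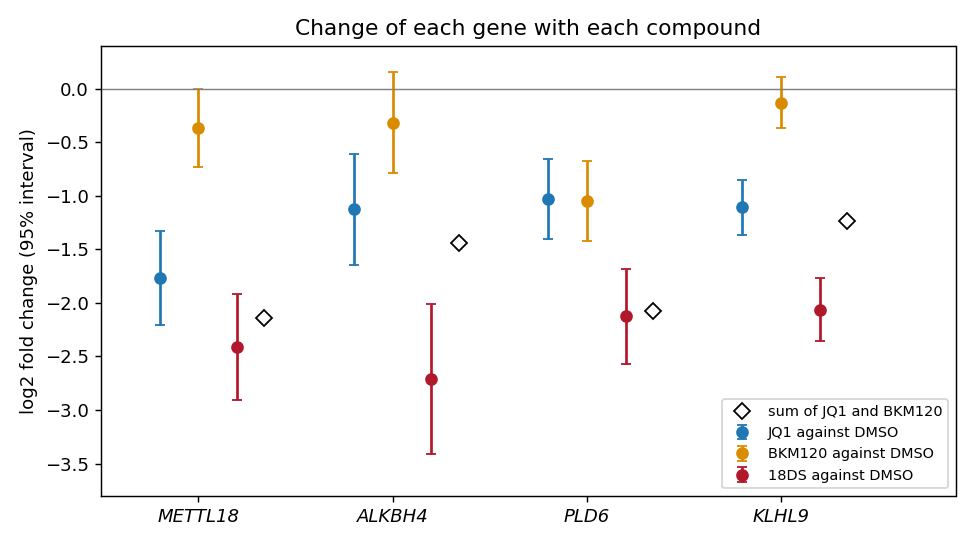
Log2 fold change of each gene against DMSO with JQ1, BKM120 and 18DS (points, with 95% intervals of the edgeR fit over 12 libraries), and the JQ1 and BKM120 values added together (open diamonds, no error drawn). For PLD6 the diamond (−2.08) lies by the 18DS point (−2.13), and for ALKBH4 (−1.44 against −2.71) and KLHL9 (−1.24 against −2.06) it lies above.

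Across the 12 libraries the levels of the 4 genes were correlated, as genes chosen for the same fall must be. Pearson's r of log2(CPM + 2) was 0.959 between *METTL18* and *KLHL9*, 0.938 between *ALKBH4* and *KLHL9* and 0.907 between *METTL18* and *ALKBH4*. With *PLD6* it was 0.836 for *ALKBH4*, 0.810 for *METTL18* and 0.798 for *KLHL9*. The values share libraries and groups and are descriptions. Among tested genes averaging 5 CPM or more, the pattern most like *METTL18* was that of *HNRNPDL* (r = 0.993), an RNA-binding protein gene, then *DHX33* (0.984), a helicase gene, and *ZNF507* (0.981). The changes of *HNRNPDL* were much smaller, from 813 CPM with DMSO to 626 with JQ1, 750 with BKM120 and 579 with 18DS. For *KLHL9* they were *ZNF22* (0.981), *KMT5B* (0.972), a histone H4 methyltransferase gene, and *AURKA* (0.971), a mitotic kinase gene. For *PLD6* they were *DNAJC2* (0.960), a ribosome-associated chaperone gene, *RNF145* (0.953) and *PATZ1* (0.952). For *ALKBH4* they were *RHOQ* (0.960), *ZFP91* (0.958) and *KMT5B* (0.952), and *ZNF711* took the place of *RHOQ* with a pseudocount of 0.5.

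The tested genes next to *METTL18*, *ALKBH4* and *PLD6* in the RefSeq order had log2 changes between −0.50 and 0.52 against DMSO, and *KLHL9* had no tested neighbour. The RefSeq span of *C1orf112* (named *FIRRM* there), a DNA-repair gene on the opposite strand, includes *METTL18*, and the starts of the pair in the promoter entries are at most 351 bases apart. The log2 change of *C1orf112* was −0.10 with JQ1, 0.19 with BKM120 and −0.10 with 18DS, and none was called (edgeR adjusted p with 18DS = 0.657). *SCYL3*, the next gene on that chromosome, gave −0.14, 0.10 and −0.08. *ALKBH4* shares its far end with *ORAI2*, a calcium-channel gene on the opposite strand, which fell modestly with JQ1 (−0.38, edgeR adjusted p = 0.0216) and gave −0.14 with BKM120 and −0.20 with 18DS. *PRKRIP1*, also beside *ALKBH4*, gave 0.26, 0.16 and −0.09 with the 3 compounds. The divergent gene *LRWD1*, whose start is 121 bases from that of *ALKBH4*, gave 0.34 with JQ1 and 0.52 with 18DS (edgeR adjusted p = 0.519 and 0.131). Next to *PLD6*, *FLCN*, which encodes the nutrient-signalling protein folliculin, fell with BKM120 (−0.50, edgeR adjusted p = 0.00862) and 18DS (−0.41, edgeR adjusted p = 0.0150) and gave −0.05 with JQ1. *MPRIP*, on the other side of *PLD6*, rose with 18DS (0.32, edgeR adjusted p = 0.0160). The interferon genes *IFNA5* and *IFNA6* beside *KLHL9* had 0 counts in the 12 libraries. Whether counting used strand is not given in the sources used here, so reads from *METTL18* and *C1orf112*, and from *ALKBH4* and *ORAI2*, cannot be told apart where they overlap. For none of the 4 genes did another identifier have counts within 5% in every library.

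**Figure D3:**
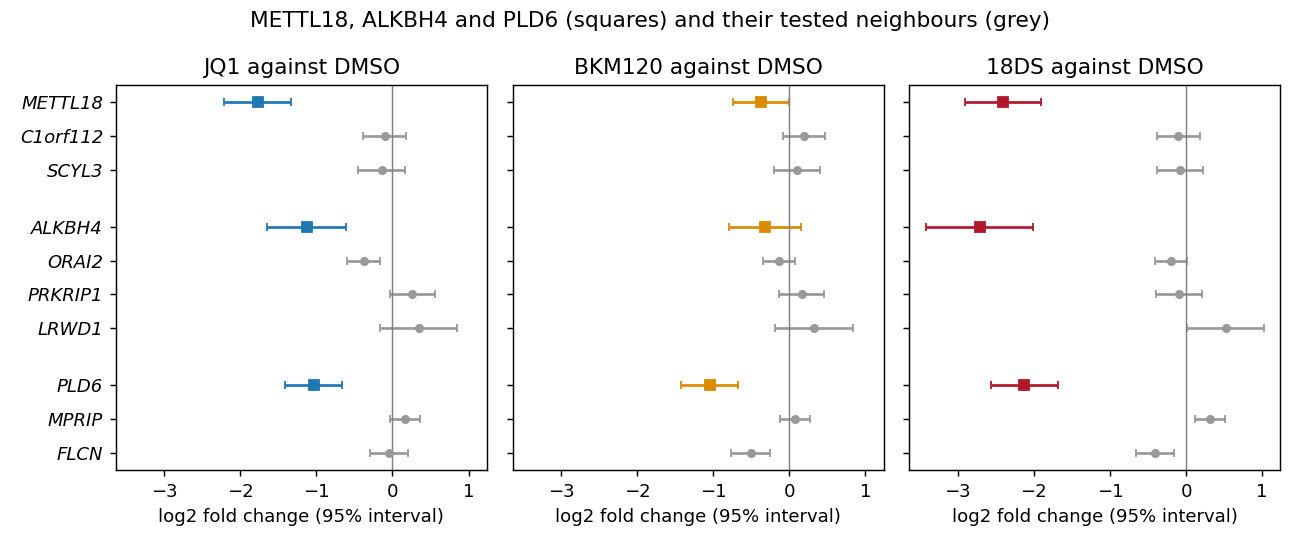
Log2 fold change against DMSO (points, with 95% intervals) of METTL18, ALKBH4 and PLD6 (coloured squares) and of the tested genes that overlap or adjoin them (grey circles), in 1 panel per compound. With 18DS the 3 squares lie between −2.71 and −2.13, and the neighbours between −0.41 and 0.52. The genes drawn as squares were chosen for low values with 18DS, so a gap there follows from the choice.

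Relatives and partners of the 4 proteins were counted in 6 lists, in which the 4 genes themselves were not included. Against these counts, the shares of all tested genes called higher were 2.63% with JQ1, 4.07% with BKM120 and 9.96% with 18DS, beside the shares called lower given above. At an unadjusted p under 0.05, 8.21% of tested genes were higher and 9.70% lower with JQ1, and 11.5% were higher and 11.9% lower with BKM120. Of 28 tested methyltransferases related to METTL18, edgeR called 1 higher and 0 lower with JQ1, 0 and 0 with BKM120, and 1 higher and 2 lower with 18DS. At an unadjusted p under 0.05, 2 were higher and 3 lower with JQ1, and 2 were higher and 2 lower with BKM120, shares of 28 near or below those of all genes. DESeq2 and limma-voom called 0 lower with JQ1 and 0 with BKM120. The median log2 change was −0.09 with JQ1 and −0.12 with 18DS, beside 0.003 and −0.003 over all tested genes. The gene that rose was *CSKMT* (citrate synthase methyltransferase), with log2 changes of 0.64 with JQ1 (edgeR adjusted p = 0.0031) and 1.14 with 18DS (edgeR adjusted p = 9.93e-08). *METTL13*, which methylates the elongation factor eEF1A, and *METTL5*, which acts on ribosomal RNA, fell with 18DS by 0.40 and 0.26 on the log2 scale in edgeR (adjusted p = 0.0296 and 0.0307). With 18DS, DESeq2 called 0 of the list lower and limma-voom called 3. *SETD3*, the histidine methyltransferase of actin, gave 0.02 with JQ1 and −0.07 with 18DS.

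The 8 tested AlkB relatives included 0 genes called with JQ1 by edgeR, DESeq2 or limma-voom, and 2 lower at an unadjusted edgeR p under 0.05. With BKM120 1 was lower, and with 18DS 1 was higher and 2 were lower. The median log2 change was −0.12 with JQ1 and 0.12 with 18DS. *ALKBH8*, a tRNA-modifying enzyme, fell with 18DS (−1.32, edgeR adjusted p = 0.00776) and gave −1.03 with JQ1 (edgeR adjusted p = 0.0745), at a mean of only 3.16 CPM. *ALKBH3*, a nucleic acid repair demethylase, fell with BKM120 (−0.50, edgeR adjusted p = 0.0190) and with 18DS (−0.60, edgeR adjusted p = 0.00187). *ALKBH5*, an RNA m6A demethylase, rose with 18DS by a log2 value of 0.23 (edgeR adjusted p = 0.0498), a call that neither DESeq2 nor limma-voom made.

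Around PLD6, 22 genes of mitochondrial dynamics and of the phospholipase D family were tested. Called genes numbered 1 higher and 1 lower with JQ1, 1 and 1 with BKM120, and 5 higher and 3 lower with 18DS, with medians of −0.03, −0.03 and −0.04. *MIEF1*, an outer-membrane receptor for the fission GTPase DRP1, fell with all 3 compounds (log2 change −0.45 with JQ1, −0.57 with BKM120 and −1.01 with 18DS; edgeR adjusted p = 0.00239, 0.000147 and 1.68e-09). *DNM1L*, which encodes DRP1, and *FIS1* rose with 18DS by log2 values of 0.42 and 0.37. *MTFR2*, a fission regulator gene, rose with JQ1 (1.71) and 18DS (1.38), and *MTFP1* fell with 18DS (−0.62, edgeR adjusted p = 0.000456). The mitofusin genes gave −0.27 (*MFN1*) and 0.09 (*MFN2*) with JQ1, and −0.31 for each with BKM120. Of 19 genes of the germ-line piRNA pathway, 4 were tested and edgeR, DESeq2 and limma-voom called 0 with any compound against DMSO. At an unadjusted edgeR p under 0.05, 1 was higher with JQ1.

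Around KLHL9, 28 of 46 other KLHL-type adaptor genes were tested. Called genes numbered 3 higher and 3 lower with JQ1, 1 and 3 with BKM120, and 3 higher and 7 lower with 18DS, with medians of −0.11, −0.11 and −0.17. At an unadjusted edgeR p under 0.05, 4 adaptor genes were higher and 4 lower with JQ1, and 2 were higher and 7 lower with BKM120. Of all tested genes, 11.9% were lower at that limit with BKM120, and 11.0% were called lower with 18DS. *ENC1* rose with JQ1 (1.90) and 18DS (2.39, edgeR adjusted p = 1.24e-09), opposite to *KLHL9*. *KBTBD6* fell with JQ1 (−0.86), BKM120 (−0.71) and 18DS (−1.30). *KLHL42* did too (−0.49, −0.57 and −1.03), and *KEAP1*, the adaptor that targets NRF2, fell with JQ1 (−0.50) and 18DS (−0.43). *KLHL24* rose with BKM120 (2.45, edgeR adjusted p = 8.4e-06). *KLHL13*, the partner of KLHL9, had 58 counts over the 12 libraries and was not tested, and *KLHL21*, another adaptor of Aurora B, gave −0.37 with JQ1 (edgeR adjusted p = 0.0646) and −0.11 with 18DS. The ligase core and chromosomal passenger genes (9 tested) had 0 called with JQ1 or BKM120 by edgeR, DESeq2 or limma-voom. At an unadjusted edgeR p under 0.05 there were 0 with JQ1, and 1 higher and 1 lower with BKM120. With 18DS *NEDD8*, the modifier that activates cullins, rose by a log2 value of 0.35, and *CDCA8*, which encodes a passenger complex subunit, fell by 0.33 on the log2 scale, a call that DESeq2 did not make.

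**Figure D4:**
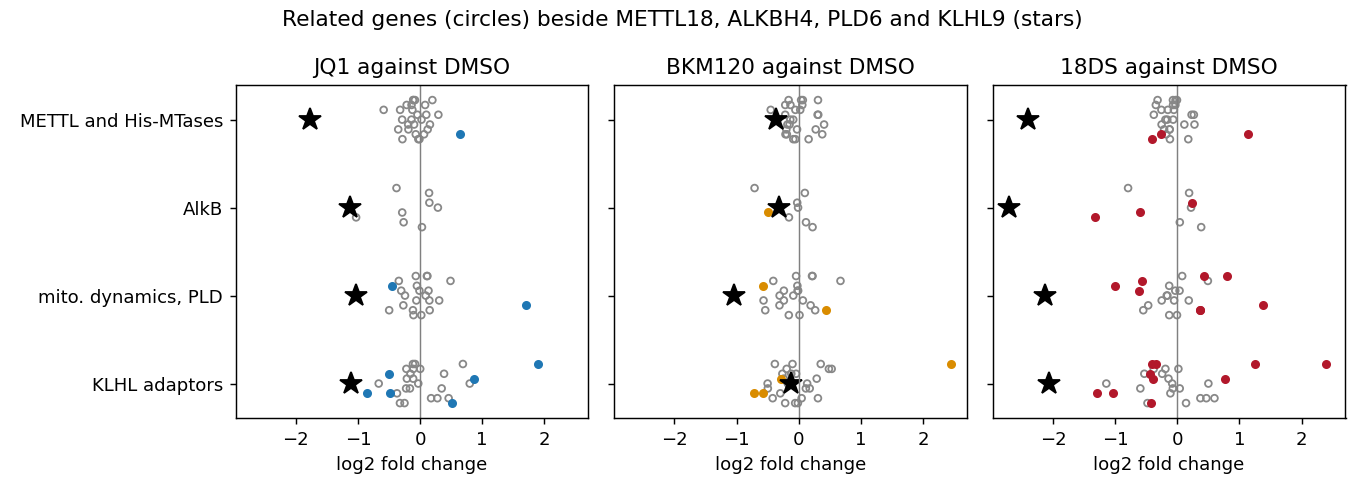
Log2 fold change against DMSO of the tested genes of 4 related-gene lists (circles, filled where called at an edgeR adjusted p under 0.05) beside METTL18, ALKBH4, PLD6 and KLHL9 (stars), in 1 panel per compound with vertical scatter for legibility only. With 18DS the stars run from −2.71 to −2.06 and every circle lies at −1.32 or above, with ENC1 highest at 2.39. The starred genes were chosen for their low values in this comparison, so this gap follows from the choice and is no result.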

How the data were processed

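Counts per Ensembl gene identifier were deposited by the authors as raw whole numbers, 1 column per library. Per the submitters' processing notes, the tools were HISAT2 2.1.0, featureCounts, bcl2fastq 2.17.1.14, cutadapt 1.7, FastQC 0.11.5, Subread, SAMtools 1.9 and limma, with build hg19 (no roles are stated). The sources used here do not state the annotation release, the strand setting or the treatment of multi-mapping reads. RefSeq (GRCh38.p14) and GENCODE 29 served for names, neighbours, exon numbers and promoters, and no hg19 coordinates are given. Symbols matched 51662 of 63152 identifiers.

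In R 4.3.3, filterByExpr (minimum count 10, minimum total 15) kept 13180 genes. Library sizes were scaled by TMM (factors 0.971 to 1.033), and 1 robust edgeR 4.0.16 quasi-likelihood fit over the 12 libraries tested each contrast. Calls required an adjusted p (Benjamini-Hochberg, over all genes tested) under 0.05. SEs and 95% intervals come from this fit, and CPM use the scaled sizes. limma 3.58.1 and DESeq2 1.42.0 were alternatives. Figures used Python 3.11.15 and matplotlib 3.10.9.

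The members' p-values are given for JQ1 against BKM120 alone, which shares no library with 18DS against DMSO. The limit of 5 CPM in the rule used the mean of all 12 libraries, JQ1 and BKM120 included. The members and lists were chosen with earlier results of these data known. Named genes are the members, the 2 genes next in order, neighbours and overlapping genes, the 3 most correlated genes per member, and up to 4 genes per list by adjusted p with 18DS. *MYC*, *CCR1*, *HEXIM1*, *CYP26A1*, *SETD3*, the mitofusins, *FIS1*, *KLHL13*, *KLHL21*, *KLHL24*, *ZNF711* and *CD38* were added after their values were seen. List symbols absent from the name table were respelled to it.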

Additional observations from a re-analysis of the deposited data

How the results depend on the processing

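The alternatives were 10 other settings (3 scalings, DESeq2, limma-voom, no robust option, 2 filters, only the 2 groups compared, and a replicate block) and each of the 12 libraries left out. In JQ1 against BKM120, *METTL18* and *KLHL9* were called and *PLD6* was not under all of them. For *ALKBH4* the call was lost with DESeq2 (−0.81, adjusted p = 0.0644). Leaving out 1 library gave −0.96 to −0.73 for *ALKBH4* (edgeR adjusted p 0.0215 to 0.132) and −0.16 to 0.12 for *PLD6*, which turned sign without JQ1 replicate 3 (−0.16) and without BKM120 replicate 1 (−0.15). Genes called went from 1925 to between 1156 and 2316 for JQ1 against BKM120, from 801 to between 504 and 1021 for JQ1 against DMSO, and from 1082 to between 482 and 1564 for BKM120 against DMSO, with fewer samples in each fit. The split of calls against DMSO moved with scaling. With JQ1 it was 346 higher and 455 lower, 306 and 555 with library totals, and 413 and 379 with upper-quartile factors. With BKM120 it was 536 higher and 546 lower, 439 and 809 with library totals, and 734 and 431 with upper-quartile factors. With 18DS it was 1313 and 1456, 898 and 2021, and 1675 and 1213. Without 18DS replicate 1 the log2 changes with 18DS against DMSO were −2.58 for *METTL18*, −1.91 for *PLD6* and −2.31 for *KLHL9*. No pairing by replicate number was visible, though this does not show how the libraries were prepared. Same-numbered libraries of different groups had deviations correlated at −0.194 to 0.138 (median 0.00928, 18 pairs). For other-numbered libraries of different groups the correlations were −0.174 to 0.199 (median −0.00273, 36 pairs). With the replicate block, *ALKBH4* in JQ1 against BKM120 was at −0.80 (edgeR adjusted p = 0.0357), and no call of the 4 genes changed there. Depth limits *ALKBH4* most, with 7 to 11 counts per 18DS library.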
